A study of Mus musculus with 16 samples.

Results

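Aquaporin 4 and the proteins that hold it at the astrocyte endfoot were followed through 8 genes, namely Aqp4, Mlc1, Hepacam, Dag1, Dtna, Dmd, Utrn and Agrn. They were picked by name from the 24060 rows of each expression table, and all 8 were found in all 16 tables. All 8 passed the filter on low values, and none was below 1 FPKM in any library. RNA came from the hippocampus and the striatum of 4 male and female mice at postnatal day 63, numbered 970, 971, 974 and 977. All mice carried hemizygous Aldh1l1-creERT2 and heterozygous Ribotag, on an FVB background crossed for 3 generations to C57/Bl6N, so the control libraries carry the same alleles as the others. Where Cre is active, the RiboTag allele puts a hemagglutinin tag on the ribosomal protein Rpl22, and the Aldh1l1 promoter directs the Cre to astrocytes. From each region of each mouse, RNA was taken from the cleared lysate (input) and from the ribosomes pulled down through the tag (IP), which gave 4 groups of 4 libraries: hippocampal input, hippocampal IP, striatal input and striatal IP.

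Astrocyte endfeet are the flat ends of astrocyte processes that wrap brain vessels and line the brain surface. Aquaporin 4, the main water channel of the brain, is crowded into the endfoot membrane by a chain of proteins. Dystroglycan binds laminin and agrin in the basement membrane outside the cell, and dystrophin, its paralog utrophin, dystrobrevin and syntrophin attach to it on the inside. MLC1 and its partner GlialCAM, encoded by Hepacam, form a second complex at the junctions between endfeet, and loss of either causes a swelling disease of white matter in people.

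Estimated depth was about 4150000 to 22600000 counted fragments per library and was lowest in striatal input (4150000 to 8960000). Levels are FPKM (fragments per length of gene and size of library) divided by a scaling factor per library, given as mean ± SD over 4 animals. Differences are log2 fold changes of FPKM + 1 with their standard error, tested with limma over 13470 genes, and a call is an adjusted p under 0.05. In IP, the 12 astrocyte markers summed to 1704 to 2088 percent of their input level, animal by animal, in the hippocampus and to 1150 to 2008 percent in the striatum. The 12 neuronal markers summed to 5.15 to 7.08 percent and 7.13 to 11.1 percent. The endothelial list was at 9.95 to 24.9 percent and 10.6 to 29.3 percent. The remaining lists were less depleted in sum than the neuronal list. Microglial markers stood at 27.1 to 31.6 percent in the hippocampus and 18.96 to 23.1 percent in the striatum. Markers of oligodendrocyte precursors stood at 26.4 to 35.96 and 16.3 to 28.9 percent, and those of fibroblasts and meninges at 11.2 to 22.8 and 34.1 to 71.4 percent. Oligodendrocyte markers stood at 46.03 to 53.4 percent in the hippocampus and 21.5 to 32.1 percent in the striatum, and mural markers at 34.1 to 45.97 and 27.1 to 44.2 percent. Cnp had a higher mean in IP than in input (69.0 against 25.1 scaled FPKM in the hippocampus, 51.7 against 39.9 in the striatum). The other oligodendrocyte markers had lower means in IP in both regions. Among mural markers Pdgfrb was higher in IP (10.4 against 1.10 and 10.4 against 0.88), and the others had lower means. The summed markers of ependyma and choroid plexus were higher in IP, at 151 to 384 and 146 to 386 percent. Rarres2 (9.54 against 1.17 and 9.40 against 1.94), Ttr (21.5 against 3.43 and 0.69 against 0.44) and Foxj1 had higher means in IP. Ttr ran from 1.70 to 66.8 in hippocampal IP. Kl, Ccdc153 and Tmem212 had lower means in IP in both regions. The driver gene Aldh1l1 rose by 4.35 ± 0.20 in hippocampal IP and by 4.31 ± 0.20 in striatal IP. The striatal inputs of animals 971 and 974 stood apart from those of 970 and 977 for several of the 8 genes, so each of the 8 genes is also given without them where that ends or makes a call, turns the direction or moves the value strongly. Without them the rises in striatal IP were 3.55 for Aqp4, 3.95 for Mlc1, 3.09 for Hepacam, 1.87 for Dag1, 2.07 for Dtna and 1.51 for Dmd, and each kept its call. Input is whole tissue, in which fewer cells of a type and less RNA per cell cannot be told apart.

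In the hippocampus 7 of the 8 genes were higher in IP than in input and 0 lower, where 30.1% of all tested genes were called higher and 35.5% lower (65.5% in either direction). In the striatum 7 were higher and 1 lower, against 33.5% and 31.4% of all genes (65% in either direction). The median of the 8 log2 fold changes was 2.33 in the hippocampus and 2.02 in the striatum, and over all genes it was -0.10 and 0.0099. The rise ran from over 4 log2 units for Mlc1 to little or none for Agrn. Between regions, 0 of the 8 were higher and 2 lower in striatal than in hippocampal IP (7.18% and 5.38% of all genes, 12.6% in either direction). The median of the 8 was -0.38, and -0.02 over all genes. Over the 12 astrocyte markers it was also -0.38, with 0 higher and 5 lower. In input 1 was higher and 1 lower in the striatum (14.5% and 21.8%, 36.3% in either direction), with a median of -0.08 for the 8 and -0.07 for all genes. The change from input to IP differed between regions for 1 of the 8, Utrn, which was lower (8.47% of all genes higher, 5.33% lower, 13.8% in either direction). The plot of levels by library shows each of these genes in all 16 libraries.

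**Figure D1:**
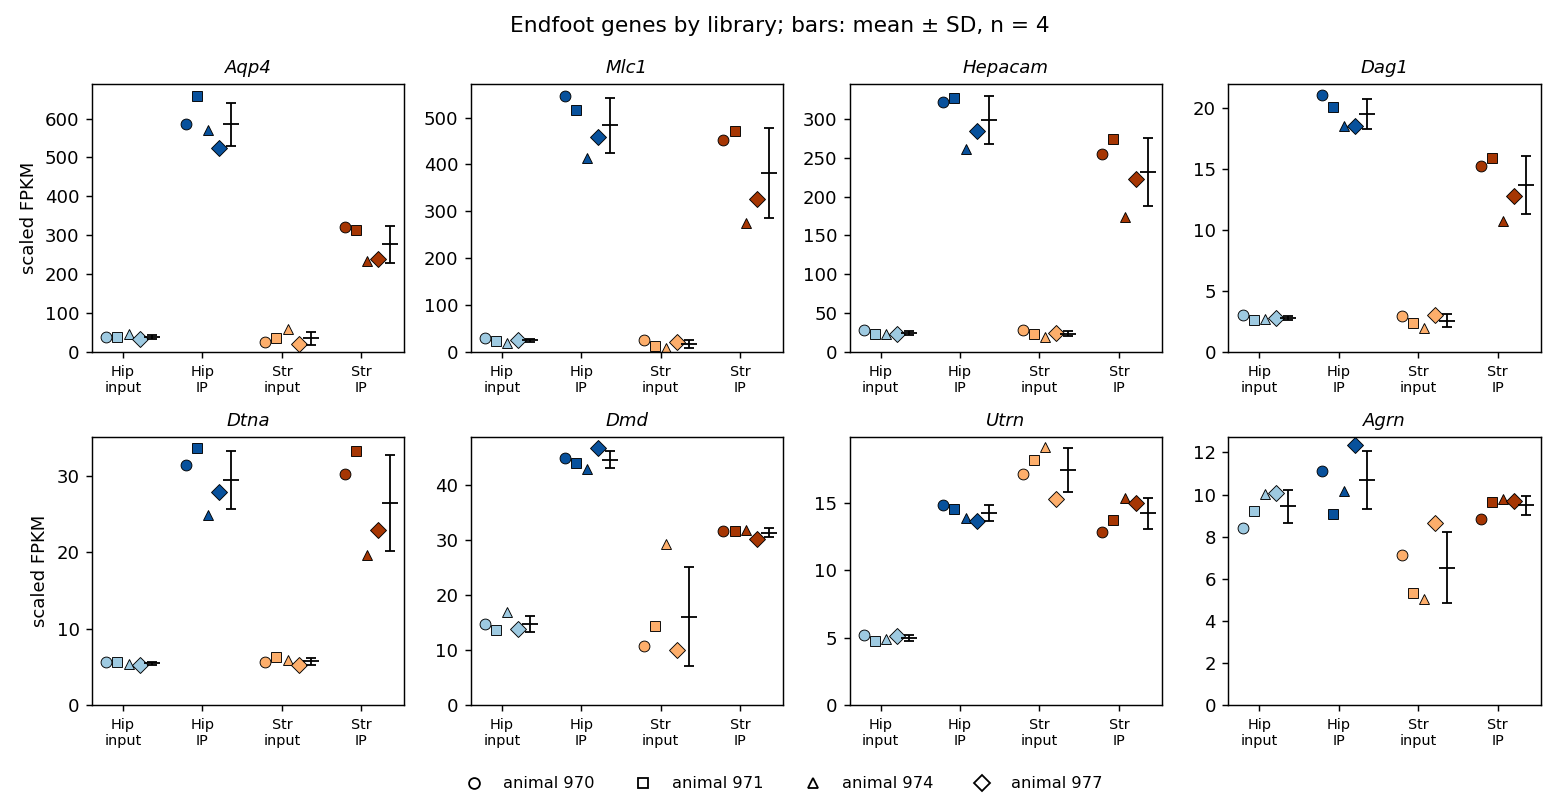
Scaled FPKM (y axis, from 0, a separate scale per gene) of the 8 endfoot genes in hippocampal (Hip) and striatal (Str) input and IP; each symbol is a library, its shape the animal, and the bar beside it the mean ± SD of 4. Aqp4, Mlc1, Hepacam, Dag1 and Dtna are high in both IPs, while Utrn is highest in striatal input (15.3 to 19.1) and lowest in hippocampal input (4.76 to 5.18).

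Aqp4, the water channel gene, was among the most abundant transcripts of the astrocyte ribosomes, ranking 51 of 13470 genes in hippocampal IP and 101 in striatal IP by mean level per length. Hippocampal input held 37.5, 37.0, 46.0 and 32.0 scaled FPKM in animals 970, 971, 974 and 977, and hippocampal IP held 587, 658, 571 and 525. The groups were far apart, with means of 38.2 ± 5.80 and 585 ± 55.2. The log2 fold change was 3.91 ± 0.24 (adjusted p = 5.34e-10). Striatal input held 25.1, 34.7, 58.3 and 20.05 and striatal IP 321, 312, 233 and 239, again without overlap (means 34.5 ± 17.0 and 276 ± 46.5). The log2 fold change was 3.06 ± 0.24 (adjusted p = 1.19e-08).

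Aqp4 was lower in striatal than in hippocampal IP in 4 of 4 animals, with no overlap between the groups. The difference was -1.09 ± 0.24 (adjusted p = 0.00566), a 2.13-fold lower level. The call was lost without animal 971, at -1.10 (adjusted p = 0.0587). In input the regions overlapped, and the difference of -0.24 (95% confidence interval -0.75 to 0.27) did not pass (adjusted p = 0.447). It passed without the striatal inputs of 971 and 974, at -0.73 (adjusted p = 0.00568). Animal 974 had the highest Aqp4 of its group in both inputs. The difference between regions in the IP-over-input change, -0.85 ± 0.34, did not pass (adjusted p = 0.11), and it was -0.36 without these inputs (adjusted p = 0.344). Of the 12 astrocyte markers, 0 were higher and 5 lower in striatal than in hippocampal IP (7.18% and 5.38% of all genes), with a median of -0.38. Aldh1l1 differed by -0.10 ± 0.20 between the IPs (adjusted p = 0.826), while Gfap, the gene of the glial filament protein, was lower in striatal IP (-2.50 ± 0.23, adjusted p = 1.33e-06). The sum of the 12 astrocyte markers was 14729, 14133, 10691 and 11879 scaled FPKM in hippocampal IP of 970, 971, 974 and 977. In striatal IP it was 11555, 12679, 6936 and 8160. Animals 974 and 977 were thus the low ones in both IPs. They were also the low ones in both for Aqp4, Mlc1, Hepacam, Dag1 and Dtna, but not for Dmd, Utrn and Agrn. Their scaling factors, by which FPKM is divided, were the larger ones (1.05 and 0.96 against 0.84 and 0.79 in striatal IP). The part of the marker sum in the Aqp4 difference was not tested. Set against Aldh1l1 within each library, a ratio chosen after its values were seen, Aqp4 stood at 4.72 to 5.90 in hippocampal IP and 2.46 to 3.12 in striatal IP. The same ratio was 4.25 to 4.64 and 3.49 to 3.71 for Mlc1, and 2.59 to 2.93 and 1.96 to 2.51 for Hepacam. Aldh1l1 differed less between the IPs than the median of the 12 markers, so a ratio to another marker can give another gap. In mean level Gja1 (568 in hippocampal and 342 in striatal IP) and Gjb6 (160 and 91.9) differed more than Aldh1l1. Acsbg1 (386 and 390) did not. Ependymal cells, which line the ventricles, also use Aqp4. The 6 markers of ependyma and choroid plexus summed to 12.01, 16.5, 27.9 and 77.4 scaled FPKM in hippocampal IP and 8.99 to 19.2 in striatal IP. Of these sums Ttr held 1.70, 2.37, 15.0 and 66.8 in hippocampal IP and 0.34 to 1.18 in striatal IP. Foxj1 (means 1.30 and 2.55), Ccdc153 (0.18 and 0.56) and Tmem212 (0.25 and 0.54) were lower in hippocampal than in striatal IP. Kl (0.70 and 0.098) and Rarres2 (9.54 and 9.40) were not. The part of these cells in the difference was not tested.

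Mlc1 encodes the membrane protein of the junctional complex and Hepacam the adhesion molecule that carries it to the junction. Both were far higher in IP than in input in each region. Mlc1 held 28.9, 23.7, 19.4 and 25.9 scaled FPKM in hippocampal input and 546, 517, 414 and 458 in hippocampal IP. In striatal input it held 25.4, 12.7, 7.69 and 20.99, and in striatal IP 453, 471, 275 and 326. Its inputs of 971 and 974 were the low ones in the striatum, the opposite of Aqp4. Mlc1 rose by 4.26 ± 0.28 in the hippocampus (adjusted p = 1.02e-09) and by 4.52 ± 0.28 in the striatum (adjusted p = 7.18e-10), among the 8 genes the largest rise in both regions. By mean level it ranked 65 of 13470 genes in hippocampal IP and 66 in striatal IP, and Hepacam ranked 110 and 116. Hepacam went from 24.4 ± 2.50 to 299 ± 31.4 in the hippocampus and from 23.5 ± 3.61 to 231 ± 43.7 in the striatum. No input library of either gene reached any IP library. The Hepacam rises were 3.56 ± 0.15 (adjusted p = 1.63e-11) and 3.24 ± 0.15 (adjusted p = 6.19e-11).

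Between the IPs neither gene of the pair passed, although both were lower in the striatum in 4 of 4 animals. For Mlc1 the difference was -0.37 (95% confidence interval -0.96 to 0.21, adjusted p = 0.458). For Hepacam it was -0.38 (-0.70 to -0.06, adjusted p = 0.118), and with the animals as blocks it passed (adjusted p = 0.026). Between the inputs Hepacam differed by -0.06 (-0.38 to 0.26, adjusted p = 0.777). Mlc1 differed by -0.64 (-1.22 to -0.05, adjusted p = 0.0812), which passed with the animals as blocks (adjusted p = 0.0208) and was -0.07 without the striatal inputs of 971 and 974 (adjusted p = 0.864). The Mlc1 striatal input spread (16.7 ± 7.97) was wide, with 971 and 974 the low animals.

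The promoters of Mlc1 and Hepacam, whose proteins form the junctional complex, are shown from RefSeq (GRCm38.p6), which listed promoters for 6 of the 8 genes. Capitals mark the core TTGGC bound by nuclear factor I proteins and the letters ACAAAG bound by SOX proteins, searched on both strands with no overlap between them. Both protein families are known regulators of glial genes.
Mlc1, chr15:88978504-88978803, minus strand: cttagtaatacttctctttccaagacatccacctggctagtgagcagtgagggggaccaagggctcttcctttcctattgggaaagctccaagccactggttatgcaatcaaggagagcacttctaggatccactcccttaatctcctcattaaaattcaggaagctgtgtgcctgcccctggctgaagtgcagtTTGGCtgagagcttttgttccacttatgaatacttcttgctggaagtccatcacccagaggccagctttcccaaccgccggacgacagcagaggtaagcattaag
Hepacam, chr9:37367356-37367655, plus strand: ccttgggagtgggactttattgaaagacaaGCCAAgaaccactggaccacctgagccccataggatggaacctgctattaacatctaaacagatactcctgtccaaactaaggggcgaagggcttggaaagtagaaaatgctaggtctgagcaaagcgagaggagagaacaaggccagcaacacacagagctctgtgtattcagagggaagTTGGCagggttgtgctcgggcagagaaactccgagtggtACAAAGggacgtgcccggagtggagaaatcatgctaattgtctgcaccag
Mlc1 holds 1 TTGGC match and 0 of ACAAAG, and Hepacam holds 2 and 1. Of all 32851 listed promoters of the same length, 46.7% hold TTGGC and 18.7% hold ACAAAG, so matches like these are common, and none shows that a protein binds there. The GCCAA in capitals is TTGGC read on the other strand. The other motifs searched were the NFI palindrome, which is TTGGC, 5 bases of any kind and GCCAA (0.0365% of promoters), the E-box CANNTG (72.3%), TATAAA (13.6%) and the CRE core TGACG (20.8%). Mlc1 and Hepacam each hold 1 E-box and 0 of the other three.

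Dag1 encodes dystroglycan, the receptor that spans the membrane and grips laminin and agrin outside. It ranked 9213 of 13470 genes in hippocampal input and 2472 in hippocampal IP. Hippocampal input held 3.04, 2.62, 2.66 and 2.77 scaled FPKM and IP 21.1, 20.1, 18.6 and 18.5. Striatal input held 2.92, 2.40, 1.93 and 3.05 and IP 15.3, 15.9, 10.7 and 12.8. Input and IP did not overlap in either region. The rises were 2.45 ± 0.13 (adjusted p = 1.23e-10) and 2.04 ± 0.13 (adjusted p = 1.26e-09). The lowest striatal input value, in 974, rests on about 51 fragments, the fewest behind any value of the 8 genes. Dag1 was also lower in striatal than in hippocampal IP, at 13.7 ± 2.38 against 19.6 ± 1.23, with no overlap. The difference was -0.50 ± 0.13 (adjusted p = 0.0177), and the call was lost without animal 970, 971 or 977 (adjusted p = 0.0818, 0.0634 and 0.112) and with no scaling (-0.34, adjusted p = 0.131). In input the regions differed by -0.09 (95% confidence interval -0.37 to 0.19, adjusted p = 0.616). The IP-over-input change differed by -0.41 between regions and did not pass (adjusted p = 0.155), though it did without the striatal inputs of 971 and 974 (-0.58, adjusted p = 0.0389).

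Dtna encodes alpha-dystrobrevin, which binds dystrophin and carries syntrophins. It was higher in IP in each region. Input ran from 5.35 to 5.67 scaled FPKM in the hippocampus and from 5.24 to 6.33 in the striatum. IP held 31.4, 33.6, 24.9 and 27.9 in the hippocampus and 30.2, 33.2, 19.7 and 23.0 in the striatum. The IP groups overlapped, and animals 970 and 971 were the high ones in both. The rises were 2.22 ± 0.14 (adjusted p = 9.48e-10) and 1.99 ± 0.14 (adjusted p = 4.34e-09). The regions differed by -0.17 in IP (95% confidence interval -0.47 to 0.14, adjusted p = 0.529) and by 0.06 in input (-0.25 to 0.36, adjusted p = 0.782). An antisense gene overlaps 90 exonic bases of Dtna, and the counts cannot be split by strand.

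Dmd encodes dystrophin, the link between dystroglycan and the cytoskeleton. It was higher in IP in 4 of 4 animals in each region, with a smaller rise than the genes above. Hippocampal input held 14.8, 13.7, 16.9 and 13.8 scaled FPKM and IP 44.8, 44.0, 42.9 and 46.6, a rise of 1.53 ± 0.22 (adjusted p = 1.32e-05). Striatal input held 10.7, 14.4, 29.3 and 9.97 and IP 31.7, 31.7, 31.8 and 30.2, a rise of 1.05 ± 0.22 (adjusted p = 0.000606). Animal 974 again stood high in striatal input, near its own IP value. The 4 hippocampal IPs all lay above the 4 striatal IPs, and both groups were tight (44.6 ± 1.58 and 31.3 ± 0.75). The difference of -0.50 (95% confidence interval -0.97 to -0.02) did not pass in the fit of all 4 groups (adjusted p = 0.179). It passed with only the IP libraries fitted (-0.52, adjusted p = 0.00295), without animal 974 (-0.52, adjusted p = 0.0166) and without the striatal inputs of 971 and 974 (-0.50, adjusted p = 0.000437). In input the difference was -0.01 (-0.48 to 0.46, adjusted p = 0.971), and without these inputs -0.48 (adjusted p = 0.00174).

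Each Dmd value pools every transcript of the gene. The first start listed lies at the upstream end of the annotated gene. Glia are known for the short form Dp71, which starts near the far end of the gene. RefSeq lists 2 starts, shown to let them be compared, with the same letters in capitals.
Dmd first start, chrX:82948620-82948919, plus strand: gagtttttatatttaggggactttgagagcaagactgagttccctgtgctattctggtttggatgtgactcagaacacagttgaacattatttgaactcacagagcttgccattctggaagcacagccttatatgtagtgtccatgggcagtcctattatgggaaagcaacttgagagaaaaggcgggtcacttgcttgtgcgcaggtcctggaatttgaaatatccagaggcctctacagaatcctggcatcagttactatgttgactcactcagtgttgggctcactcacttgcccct
Dmd internal start, chrX:85048045-85048344, plus strand: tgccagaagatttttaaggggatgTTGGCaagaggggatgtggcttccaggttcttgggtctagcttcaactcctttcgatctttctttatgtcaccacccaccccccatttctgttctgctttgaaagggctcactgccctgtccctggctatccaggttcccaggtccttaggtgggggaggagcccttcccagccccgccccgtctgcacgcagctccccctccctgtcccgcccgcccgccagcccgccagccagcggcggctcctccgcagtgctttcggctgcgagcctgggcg
The first holds 0 TTGGC matches and the second 1, and ACAAAG is in neither. Since the files give a single value for the gene, the share of each start was not measured. Transcripts from any start not listed here would be pooled in the same value. A length taken over the whole gene would also lower the FPKM of a short form.

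Utrn encodes utrophin, the paralog of dystrophin that is known from vessels as well as from astrocytes. It departed from the other genes in the striatum. Hippocampal input held 5.18, 4.76, 4.89 and 5.16 scaled FPKM and hippocampal IP 14.9, 14.5, 13.8 and 13.6, with no overlap. This rise was 1.34 ± 0.09 (adjusted p = 2.73e-09). Striatal input held 17.1, 18.2, 19.1 and 15.3 and striatal IP 12.8, 13.7, 15.3 and 14.9. The striatal groups touched at 15.3, and IP was the lower in 4 of 4 animals. The striatal change was -0.28 ± 0.09 (adjusted p = 0.0176), a call lost without 970, 971 or 974 (adjusted p = 0.123, 0.121 and 0.0629), with only the striatal libraries fitted (adjusted p = 0.117) and without the inputs of 971 and 974 (-0.18, adjusted p = 0.116).

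Utrn differed between the regions in whole tissue, while the astrocyte fractions had the same mean level. The inputs differed by 1.62 ± 0.09 (adjusted p = 1.66e-09), with means of 17.4 ± 1.63 in the striatum and 4.998 ± 0.21 in the hippocampus. The IPs differed by -0.0028 (95% confidence interval -0.20 to 0.20, adjusted p = 0.992), with means of 14.2 ± 1.15 and 14.2 ± 0.58. The test of the difference itself gave -1.62 ± 0.13 (adjusted p = 1.06e-06). It kept its direction and its call under all 13 alternatives run for it, with values from -1.78 to -1.17. Other lists also differed between the inputs. The summed oligodendrocyte markers were 362 to 434 scaled FPKM in striatal input and 171 to 195 in hippocampal input. The microglial markers were 133 to 163 against 93.8 to 98.1, and the endothelial markers 16.6 to 22.3 against 13.8 to 14.3. Mural cell markers overlapped, at 36.02 to 63.1 and 37.2 to 48.4. Neuronal markers ran the other way in sum, at 1837 to 2618 against 3877 to 4010. Of the 12, 0 were called higher and 5 lower in striatal input, beside 14.5% and 21.8% of all genes. The rest did not pass, and Nefm had the higher mean in the striatum (71.4 against 46.4). The part of any of these cells in the Utrn level was not tested.

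For the other 7 genes the regional difference in the IP-over-input change did not pass. It was -0.48 for Dmd (adjusted p = 0.324), -0.32 for Hepacam (adjusted p = 0.33), -0.22 for Dtna (adjusted p = 0.488), 0.27 for Mlc1 (adjusted p = 0.685) and 0.34 for Agrn (adjusted p = 0.264), beside the values of Aqp4 and Dag1 above. Without the striatal inputs of 971 and 974 it was -0.02 for Dmd, -0.30 for Mlc1 and 0.085 for Agrn, and none of these passed (adjusted p = 0.947, 0.548 and 0.789).

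**Figure D2:**
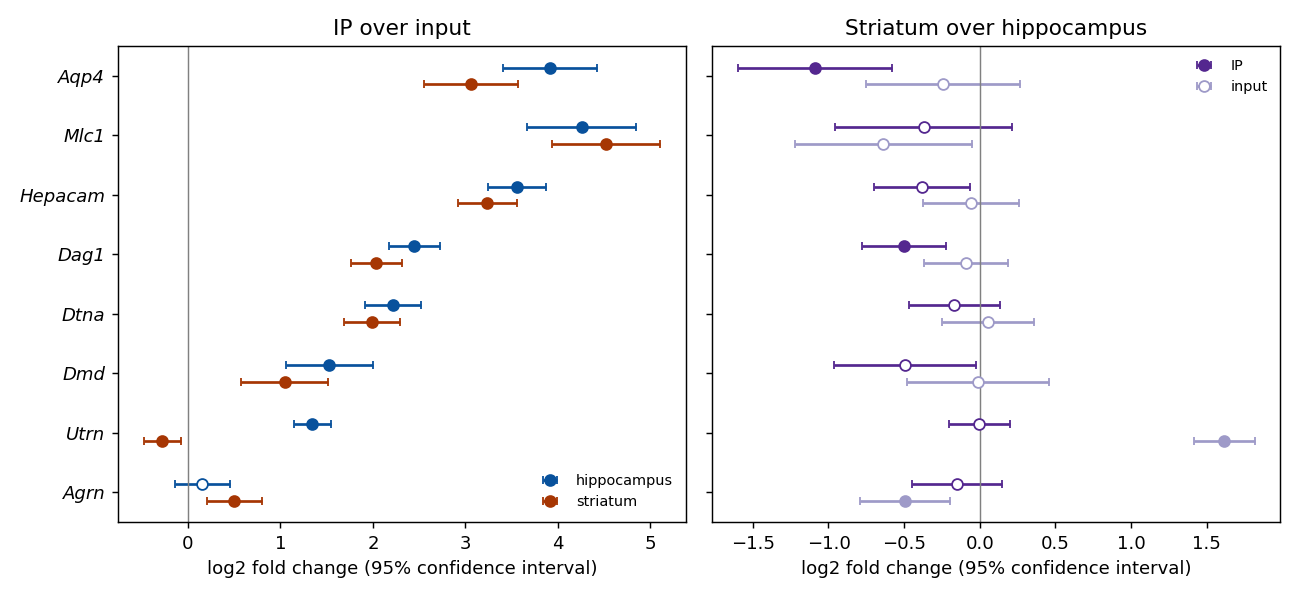
Log2 fold changes (x axis) with 95% confidence intervals for the 8 genes; left, IP over input in each region, right, striatum over hippocampus in IP and in input; filled points have an adjusted p under 0.05. Utrn alone of the 8 has calls of opposite sign in the left panel (1.34 and -0.28), the striatal one lost in 5 of 14 alternatives, and Aqp4 has the largest regional difference in IP (-1.09).

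Agrn encodes agrin, a heparan sulphate proteoglycan that dystroglycan binds and that is known to shape the arrays of aquaporin 4 at the endfoot. In the hippocampus it had the smallest change of the 8 genes between input and IP. Hippocampal input held 8.43, 9.22, 10.03 and 10.05 scaled FPKM and IP 11.1, 9.08, 10.2 and 12.3, which overlapped. The change of 0.16 (95% confidence interval -0.14 to 0.45) did not pass (adjusted p = 0.334). It turned to -0.35 with no scaling (adjusted p = 0.123) and passed at 0.35 with only the hippocampal libraries fitted (adjusted p = 0.00879). Striatal input held 7.14, 5.31, 5.05 and 8.63 and IP 8.83, 9.63, 9.79 and 9.70. Here IP was the higher in 4 of 4 animals, and the rise was 0.50 ± 0.14 (adjusted p = 0.00491). It was lost without the low striatal inputs of 971 and 974 (0.24, adjusted p = 0.0946), without animal 971 (0.42, adjusted p = 0.0525) and with no scaling (0.19, adjusted p = 0.404). In input Agrn was lower in the striatum by 0.49, as -0.49 ± 0.14 (adjusted p = 0.0119). That call was lost without these 2 inputs (-0.23, adjusted p = 0.188), without 971 or 974 (adjusted p = 0.099 and 0.0983) and with only the inputs fitted (adjusted p = 0.0777). The IPs differed by -0.15 (-0.45 to 0.15, adjusted p = 0.577).

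Ratios of FPKM within a library are free of the scaling factor and compare transcript levels between genes. They are given as descriptions, and they depend on gene lengths not given in the sources used here. Per length, Utrn stood at 0.29 to 0.37 of Dmd in hippocampal input, 0.29 to 0.33 in hippocampal IP and 0.40 to 0.49 in striatal IP. In striatal input it stood at 1.60, 1.26, 0.65 and 1.53, above every other library. Thus Dmd had the higher FPKM of the 2 paralogs in 13 of 16 libraries and Utrn in the striatal inputs of 970, 971 and 977. Since the Dmd value pools forms of unlike length, the order of transcript numbers cannot be read from it. Mlc1 and Hepacam were near parity in hippocampal input (0.86 to 1.10). In striatal input the ratio was 0.91, 0.56, 0.40 and 0.88 in 970, 971, 974 and 977, and only 971 and 974 lay below the hippocampal range. Mlc1 exceeded Hepacam in both IPs (1.58 to 1.69 and 1.46 to 1.78). Agrn was 2.78 to 3.77 times Dag1 in hippocampal input and 2.22 to 2.83 times in striatal input, and fell to 0.45 to 0.67 and 0.58 to 0.91 in the IPs. Dtna was 0.32 to 0.41 of Dmd in hippocampal input and 0.58 to 0.76 in hippocampal IP. The ratio of Aqp4 to Mlc1, chosen after its values were seen, was 0.99, 2.73, 7.58 and 0.96 in striatal input, where striatal IP had 0.66 to 0.85. The inputs of 971 and 974 were thus unlike the other striatal libraries in this pair of astrocyte genes. Over 12865 genes, the deviation from the group mean correlated with log gene length at 0.114 and 0.166 in these inputs. In the striatal inputs of 970 and 977 the correlations were -0.153 and -0.183. In striatal IP they were 0.154, 0.106, -0.149 and -0.094 for 970, 971, 974 and 977. The part of gene length in the values of these genes was not tested.

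**Figure D3:**
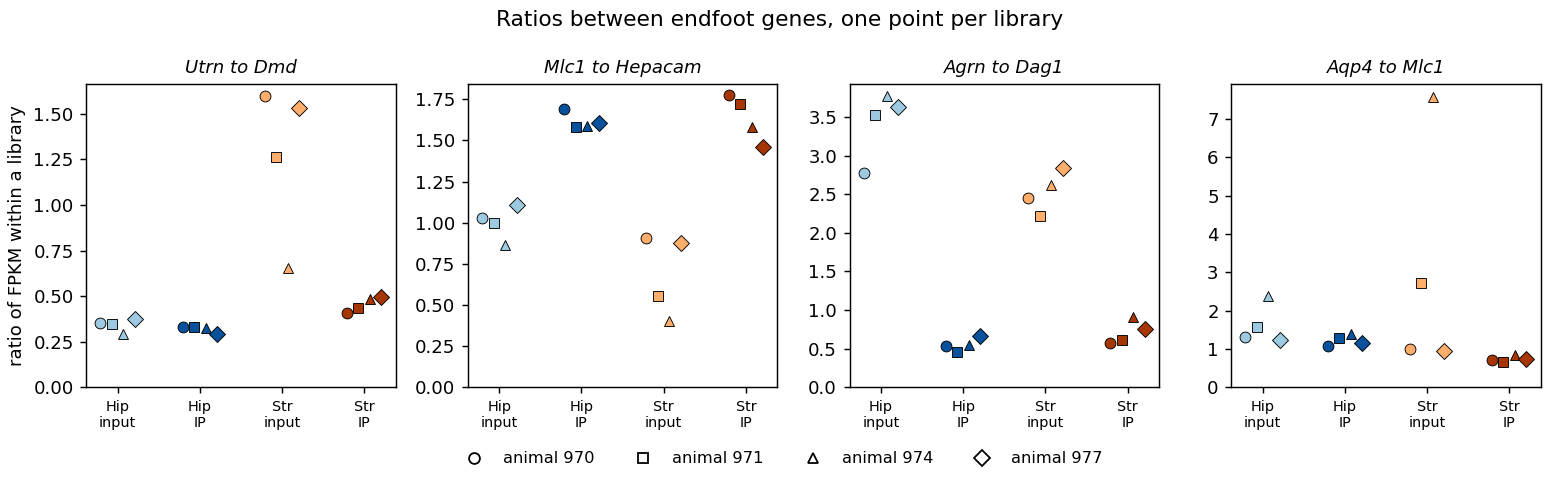
Ratios of FPKM within a library (y axis, from 0) for 4 pairs of endfoot genes in hippocampal (Hip) and striatal (Str) input and IP; each symbol is a library and its shape the animal. Utrn to Dmd is highest in striatal input (0.65 to 1.60), Agrn to Dag1 is lower in both IPs than in both inputs, and Aqp4 to Mlc1 in striatal input reaches 7.58 in animal 974.

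Among the other genes of the dystrophin complex, 12 of 14 were tested. In hippocampal IP 6 were higher and 4 lower than in input, and in striatal IP 6 were higher and 5 lower. Of all genes, 30.1% were higher and 35.5% lower in hippocampal IP and 33.5% and 31.4% in striatal IP, with medians of -0.10 and 0.0099. The list medians were 0.25 and -0.07, and the first turned to -0.03 with no scaling, where 6 were lower. Sarcospan (Sspn, 2.01 and 1.56), beta-sarcoglycan (Sgcb, 1.20 and 1.38) and Drp2, a small relative of dystrophin (1.21 and 1.08), rose (log2 fold changes in hippocampus and striatum). The syntrophin Sntb1 rose more in the striatum (0.93 and 1.81, difference 0.88, adjusted p = 0.0291). That difference missed the threshold with median-of-ratios scaling (0.79, adjusted p = 0.0514) and without animal 970, 971 or 977 (adjusted p = 0.127, 0.143 and 0.202). The syntrophin Sntb2 fell in both regions (-1.18 and -1.40).

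Genes of the enzymes that build the laminin-binding sugar of dystroglycan held calls in both directions, as did all genes. Of 16 tested of 18, 3 were higher and 5 lower in hippocampal IP, where 30.1% and 35.5% of all genes were. In striatal IP 5 were higher and 4 lower, beside 33.5% and 31.4% of all genes. The medians of 0.01 and 0.16 turned to -0.36 and -0.14 with no scaling, and 9 and 7 were then lower. Pomt1 and Pomt2, whose products together add the first mannose, rose (1.99 and 2.40 for Pomt1, 1.69 and 1.84 for Pomt2), and so did the dolichol kinase gene Dolk (1.43 and 1.72). Large, which encodes the enzyme that extends the final repeat, fell from 36.6 ± 2.43 to 11.1 ± 0.71 scaled FPKM in the hippocampus and from 19.4 ± 3.61 to 8.97 ± 0.69 in the striatum (-1.64 and -1.02).

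The basement membrane list had 8 of 14 genes tested, of which 4 were higher and 1 lower in hippocampal IP and 5 and 2 in striatal IP (medians 0.53 and 0.51). The shares of all genes were 30.1% higher and 35.5% lower in the hippocampus and 33.5% and 31.4% in the striatum. With no scaling the medians were 0.095 and 0.27, with 4 higher and 2 lower in the hippocampus and 3 and 2 in the striatum. Laminin chain genes moved in different directions. Lama2 rose from 2.05 ± 0.22 to 24.3 ± 2.73 scaled FPKM in the hippocampus and from 1.60 ± 0.47 to 15.1 ± 2.36 in the striatum (3.05 and 2.64). Lamb2 rose by 3.52 and 3.29 and Lamc1 by 0.91 and 0.51, so genes of all 3 chain types of a laminin were higher on astrocyte ribosomes, though Lamc1 in the striatum did not pass with no scaling (0.20, adjusted p = 0.171). Lamb1 fell (-1.25 and -0.80). Lama2 and Lamb2 were lower in striatal than in hippocampal IP (-0.66 and -0.54, adjusted p = 0.00443 and 0.0499). With no scaling Lamb2 missed the threshold (-0.39, adjusted p = 0.174), as it did without each animal in turn (adjusted p from 0.0702 to 0.165), and the Lama2 call was lost without animal 977 (-0.62, adjusted p = 0.0733). Nid1, the gene of the linker protein nidogen, fell in striatal IP (-1.12) and stood at -0.29 in hippocampal IP.

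Lrp4, the gene of the receptor that binds agrin at the nerve-muscle junction, had among the steepest rises of the listed genes. Lrp4 held 3.04 to 3.38 scaled FPKM in hippocampal input and 68.1 to 82.7 in IP, and 1.79 to 2.46 in striatal input and 41.3 to 58.9 in IP. The log2 fold changes were 4.19 ± 0.13 and 4.02 ± 0.13 (adjusted p = 3.99e-12 and 7.56e-12), and Lrp4 was lower in striatal than in hippocampal IP (-0.62, adjusted p = 0.00306). The adaptor gene Dok7 rose too (1.43 and 1.52), while Prss12, the gene of a protease that cuts agrin, fell in the hippocampus (-1.08) and stood at -0.44 in the striatum. Musk, the kinase that pairs with Lrp4 in muscle, was below the filter, at up to 0.029 scaled FPKM in hippocampal IP and up to 0.13 in striatal IP.

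Known partners of MLC1 and GlialCAM were mostly higher in IP. Of 9 tested of 10, 8 were higher and 1 lower in each region (medians 3.53 and 3.28). Of all genes, 30.1% were higher and 35.5% lower in the hippocampus and 33.5% and 31.4% in the striatum. The receptor gene Gpr37l1 (4.39 and 4.62), connexin 43 (Gja1, 4.26 and 3.79) and the potassium channel gene Kcnj10 (3.87 and 3.28) were among the higher ones. The chloride channel gene Clcn2 rose less (0.71 and 1.30), and in the hippocampus it did not pass with no scaling (0.21, adjusted p = 0.452). Atp1b1, the gene of a pump subunit that neurons use, fell (-2.99 and -1.86). Gja1 and Gjb6, the 2 connexin genes, were lower in striatal than in hippocampal IP (-0.78 and -0.83, adjusted p = 0.00962 and 0.0032), the Gja1 call being lost without animal 977 (adjusted p = 0.0902). Of the other 11 aquaporin genes only Aqp11, an intracellular channel, passed the filter. It fell in hippocampal IP (-0.65), a call lost without animal 970 or 977 (adjusted p = 0.0759 and 0.0652). It rose in striatal IP (0.62), a call lost with no scaling (0.37) and without 970, 971 or 977 (adjusted p = 0.104, 0.124 and 0.0844). Its IP levels were 5.55 ± 0.74 scaled FPKM in the hippocampus and 3.82 ± 0.53 in the striatum. Aqp9, at 0.59 to 0.91 in hippocampal IP and 0.55 to 0.87 in striatal IP, stayed below it.

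**Figure D4:**
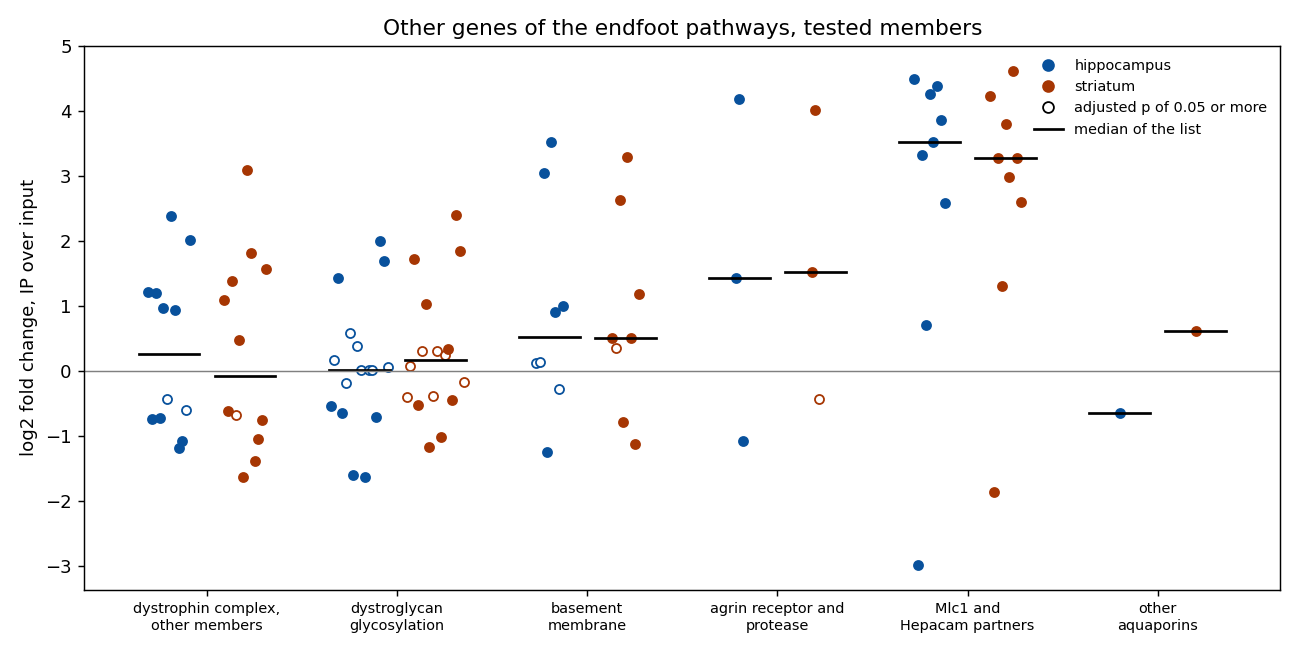
Log2 fold change of IP over input (y axis) for each tested gene of 6 lists of other endfoot pathway genes, in hippocampus and striatum; filled points have an adjusted p under 0.05 and lines are list medians. The partners of Mlc1 and Hepacam have medians of 3.53 and 3.28 and the glycosylation genes 0.01 and 0.16.

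The genes whose log2 level followed Aqp4 most closely over the 16 libraries were Ptprz1, Fmnl2, Lgr4, Sash1 and Add3 (Pearson r from 0.995 to 0.992). For Mlc1 they were led by Asrgl1, Gpr37l1 and Aldoc (0.999, 0.999 and 0.998), and for Dtna by Kcnj10 (0.998). Hepacam was followed most closely by Ppap2b and Tns3 (0.999 and 0.999), Dag1 by Pnpla7 (0.997) and Dmd by Scaf11 and Snx4 (0.981 and 0.977). Utrn had looser neighbours, led by Cux1 and Sun2 (0.959 and 0.959), and Agrn was led by a noncoding RNA gene and Cirbp (0.957 and 0.935). Over the 8 IP libraries alone, Aqp4 was followed most closely by Olfml1 and Mgll (0.997 and 0.992). These values are descriptions, since libraries of an animal and of a group share tissue, scaling and the pulldown.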

How the data were processed

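Sequencing libraries of 16 RNA samples (input and IP, 2 regions, 4 animals) were made from 100 ng RNA with an amplifying kit that does not mark strand, per the labels' protocols. bcl2fastq 2.17, STAR, HTSeq and the mm10 genome are named in the submitters' processing notes. The deposited values are FPKM per gene, a unit read from the values, and the gene lengths behind them are not given in the sources used here. Fragments per library were estimated from the smallest steps of the FPKM values and GENCODE vM21 lengths. Trimmed-mean factors (30% of log ratios and 5% of levels trimmed) were computed on FPKM. Genes reaching 1 FPKM in 4 or more libraries were kept, a pseudocount of 1 was added, and log2 values were tested two-sided with limma 3.58.1 (R 4.3.3, trend and robust) over all 16 libraries with Benjamini-Hochberg adjustment. Adding 1 FPKM understates the change of low genes. The scripts were run on simulated data with independent libraries and few changed genes. That setting differs from these data, so the run measures no error rate here. The 8 genes and the gene lists were chosen with earlier results of these data known. Besides the 8, genes named were those of each list with the smallest p or against its median, the closest by Pearson r, and Musk, Aqp9, Clcn2, Dolk, Drp2, Sgcb, Lamc1 and Nid1 where chosen after their values were seen. The ratios of Aqp4 to Mlc1 and of Aqp4, Mlc1 and Hepacam to Aldh1l1 were also chosen then. Libraries of an animal are paired by the labels. Same-animal deviations correlated at 0.308 to 0.532 between the IPs and at -0.008 to 0.085 between striatal input and IP. The alternatives (for the list genes chosen after seeing the data) were other pseudocounts, filters, scalings, variance models and sample sets, an animal block, and leaving out libraries. Sex per animal is not given in the labels. Some genes of the lists are not reported here by name.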

Additional observations from a re-analysis of the deposited data

Results flagged for a closer look

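The change from input to IP differed between striatum and hippocampus by the test of the difference for Utrn (-1.62). Among the pathway genes named, it also differed for Sntb1 (0.88), Sgcz (-1.20), Nid1 (-0.83), Large (0.62), Atp1b1 (1.13) and Aqp11 (1.27). Those of Utrn and Atp1b1 kept their calls under both other scalings, without the striatal inputs of 971 and 974 and without each animal in turn. The others did not. Sntb1 and Large missed the threshold with median-of-ratios scaling (0.79 and 0.50, adjusted p = 0.0514 and 0.0639) and without animal 970, 971 or 977. Nid1 and Sgcz missed it without the striatal inputs of 971 and 974 (-0.63 and -0.89, adjusted p = 0.117 and 0.0966) and without each animal in turn. Aqp11 missed it without 970, 971 or 977 (adjusted p = 0.108, 0.0609 and 0.0765).

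Of 168 groups of 4 libraries examined, 10 had a library far from the other 3 (a gap above Dixon's 95% critical value), and chance gives about 1 in 20. Among the 8 endfoot genes these were Dmd in striatal IP 977 (30.2 scaled FPKM, the lowest) and Agrn in striatal IP 970 (8.83, the lowest). Striatal input 974 stood apart for Sgcz (12.1), Lamb2 (0.17) and Aqp11 (4.38). Hippocampal input 970 stood apart for Sntb2 (9.75) and Large (33.0), and hippocampal input 974 for Gpr37l1 (17.8). Hippocampal IP 970 stood apart for Lamb2 (26.2) and hippocampal IP 971 for Aqp11 (6.66).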

How the results depend on the processing

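Over the 8 genes, 5 comparisons and 14 alternatives (13 for the regional difference of the change), 512 of 552 fold changes kept direction and call. The rises of Aqp4, Mlc1, Hepacam, Dag1, Dtna and Dmd in both IPs, and of Utrn in hippocampal IP, kept their calls in each. The cause of the changes below was not tested. With the animals as blocks (replicate block), 2 of the 8 genes were lower in striatal input in place of 1, and beside the Hepacam and Mlc1 calls given above the pairing changed no other call of the 8. With no scaling, which moved the median of all genes by -0.41 in the hippocampal and -0.26 in the striatal IP comparison and by 0.12 between the IPs, 2496 genes in place of 4052 were higher in hippocampal IP, 443 in place of 725 lower in striatal than hippocampal IP with 1 of the 8 in place of 2, Agrn in the hippocampus turned to -0.35 and Utrn between the IPs to 0.15. Between the inputs, Dmd turned to 0.0070 with a pseudocount of 5 and to 0.049 with median-of-ratios scaling, and Hepacam to 0.0020 with the latter. With only the groups compared, 0 of the 8 were lower in striatal IP than input and 0 lower in striatal input, 1910 genes in place of 2938 were lower there, and Dmd turned to 0.038. Without the striatal inputs of 971 and 974, 0 of the 8 were lower in striatal IP than input, 1133 genes lower in striatal IP than hippocampal IP, 1224 in place of 1958 higher in striatal input with 2 of the 8 lower, and 2 of the 8 had a lower change in the striatum. Without them Dag1, Dtna and Hepacam between the inputs turned to 0.079, -0.017 and 0.085, and the regional difference of the Mlc1 change turned to -0.30. Leaving out each animal in turn gave 0 to 1 of the 8 lower in striatal IP than input. Between the IPs it gave 475 to 754 genes higher (967 with every animal), 355 to 539 lower (725) and 0 to 3 of the 8 lower. Between the inputs it gave 1013 to 1704 genes higher (1958), 1584 to 2473 lower (2938) and 0 to 1 of the 8 lower. For the regional difference of the change it gave 348 to 832 genes higher (1141) and 228 to 500 lower (718). Leaving out each animal moved Utrn between the IPs from -0.052 to 0.062, above 0 without 970 (0.062) or 971 (0.022), and Dmd between the inputs from -0.27 to 0.13, above 0 without 970 or 977. Depth limits the low genes of striatal input most, where the smallest values of Dag1 and Mlc1 rest on about 51 and 89 fragments.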
